A study of Mus musculus with 12 samples.

Results

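The LAPTM family (lysosomal-associated protein transmembrane) has 3 genes, Laptm4a, Laptm4b and Laptm5, which were followed here on every array of a study of mouse islets that overexpress sorcin, a calcium-binding protein encoded by Sri. A probe was taken as a member if its symbol in the deposited intensity table, or its updated symbol in the authors' deposited comparison table, was 1 of these 3 names. The rule found 3 of 30979 gene names and 5 of the 45281 probes on the array: 1 for Laptm4a, 3 for Laptm4b and 1 for Laptm5. The Laptm4b probe ILMN_2530434 carried the older symbol LOC224532 on the array and was named Laptm4b only in the updated annotation. All 5 were among the 18315 probes kept for testing, which had a detection p-value under 0.05 on at least 6 of the 12 arrays. The family was picked with the difference between the 2 groups already known, so that difference is only described below for the members. The test over all kept probes includes them, and nothing is read from their results in it.

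RNA came from islets of Langerhans, the endocrine clusters of the pancreas, of 12 male C57BL/6 mice aged 8 weeks, with 1 array per mouse. The 6 mice called SRI-tg10 carried 10 copies of a transgene for sorcin. Sorcin and luciferase were under a tetracycline-inducible promoter, and the transactivator was under the rat insulin promoter, which is active in beta cells. The 6 controls were littermates, and the labels do not say which of these transgenes a control mouse carried; whether SRI-tg10 mice descend from 1 founder is not given either. Per the series' design text both groups ate a diet with 60% fat from 4 weeks of age and drank doxycycline at 500 mg/L, for 4 weeks, so the diet and the drug are common to every array. The sample source is written as beta cells, whereas the tissue field and the isolation protocol describe whole islets. Sample titles carry a letter, A or B, with 3 mice of each group under each letter; what the letter stands for is not stated. Replicates below are numbered within each group in the order of the samples, and replicates 1 to 3 have the letter A.

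LAPTM proteins cross the membranes of late endosomes and lysosomes several times, and short PY motifs in their tails are bound by ubiquitin ligases of the Nedd4 family. In human cells LAPTM4A is needed for the synthesis of the glycosphingolipid Gb3, and LAPTM4B binds ceramide and helps bring the leucine transporter LAT1 to lysosomes. LAPTM5 is made mainly by blood-forming cells, where it lowers the surface level of antigen receptors by sending them to lysosomes.

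Between 16271 and 20094 probes were detected per array, or 35.9% to 44.4% of all, and arrays correlated with each other at 0.918 to 0.983 over the kept probes. Sri checked the labels. Its probe ILMN_2600537 read 9.86 ± 0.22 in controls (log2 scale, SD, n = 6) and 14.53 ± 0.89 in SRI-tg10 mice (n = 6), with no overlap. SRI-tg10 replicate 4 stood apart from its group on this probe, at 12.72 against 14.81 to 14.96 in the other 5, but was above every control; the top of the normalized scale was 15.17. The array of control replicate 5 detected the smallest number of probes and correlated least with the rest, at 0.934 on average. Of 20 islet endocrine genes, all 20 were kept and none passed the all-probe limma test between groups (adjusted p under 0.05). Of all 18315 kept probes 4 passed it (0.0218%). An unadjusted limma p under 0.05 was found for 3 of the 20, beside 4.04% of all 12647 genes. All 3 were lower in SRI-tg10: G6pc2 at -0.45 ± 0.14, Iapp at -0.37 ± 0.15 and Ero1lb at -0.36 ± 0.14 (log2, SE). The endocrine list's mean centred log2 level ran from -0.21 to 0.19 in controls and from -0.21 to 0.23 in SRI-tg10 mice.

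Laptm4a was read by 1 probe, ILMN_1254173, and lies on chromosome 12. The start of the gene is shown because Laptm4a is the member with the largest difference between the groups, beside that of Laptm5, the member with the widest spread within them; each window runs from 250 bases before to 50 bases after the RefSeq gene start (RefSeq, build GRCm38.p6, plus strand). Capitals mark TATAAA, letters also found in TATA boxes, which lie close to a gene start, and CGGAAGTG, letters found in sites of ETS factors. The Laptm4a window is chr12:8921057-8921356 and the Laptm5 window chr4:130913066-130913365.
Laptm4a: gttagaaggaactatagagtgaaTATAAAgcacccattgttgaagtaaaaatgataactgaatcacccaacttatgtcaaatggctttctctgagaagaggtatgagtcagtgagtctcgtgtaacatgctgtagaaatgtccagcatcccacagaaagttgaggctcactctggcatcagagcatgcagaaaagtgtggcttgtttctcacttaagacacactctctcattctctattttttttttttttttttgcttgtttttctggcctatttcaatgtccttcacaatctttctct
Laptm5: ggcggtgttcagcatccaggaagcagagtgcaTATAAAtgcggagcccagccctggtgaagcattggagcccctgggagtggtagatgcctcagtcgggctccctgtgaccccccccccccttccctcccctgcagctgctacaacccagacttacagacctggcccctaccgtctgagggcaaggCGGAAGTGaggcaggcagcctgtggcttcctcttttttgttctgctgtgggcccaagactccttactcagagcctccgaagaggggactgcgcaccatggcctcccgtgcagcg
Searched on both strands, TATAAA occurred once in each window, starting 227 bases before the gene start in Laptm4a and 218 in Laptm5, and is found in 13.6% of 32544 mouse promoter windows of the same length. CGGAAGTG occurred once, in the Laptm5 window 64 bases before the start, and is in 3.47% of windows. These 2 motifs were added after the sequences had been seen. CACGTG, the E-box core within the site of the lysosomal regulator TFEB, matched neither window and is in 7.17% of windows; the longer CLEAR motif, which contains CACGTG, matched neither and is in 0.329%. The windows differ in composition. Laptm4a's is 38.0% G and C with 1 CpG, at the 7.0th and 5.4th percentiles of all windows, and Laptm5's is 62.3% with 9 CpG, at the 76.0th and 53.9th.

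The Laptm4a probe was detected on 12 of 12 arrays; its own sequence was not used here, so its place on the transcript is not described. In the 6 controls its normalized log2 levels were 10.78, 10.99, 11.08, 10.64, 10.89 and 10.30 (replicates 1 to 6). In the 6 SRI-tg10 mice they were 7.87, 7.77, 7.87, 10.21, 7.30 and 7.80. The other 5 SRI-tg10 mice, replicate 4 aside, were far below every control, and replicate 4 was next to the control range, 0.09 below the lowest control; the groups did not overlap.

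The mean Laptm4a level was 10.78 ± 0.28 in controls and 8.14 ± 1.04 in SRI-tg10 mice (SD, n = 6 each), with medians of 10.84 and 7.83. The difference was -2.65 ± 0.39 (log2, SE), or 6.26-fold lower in SRI-tg10. Without replicate 4 the other 5 SRI-tg10 mice had a mean of 7.72 ± 0.24 (SD, n = 5) and were 8.34-fold below the control mean, whereas replicate 4 alone was 1.48-fold below it. The same probe in deposited intensity, before any normalization, read 1119 to 2825 in controls and 281 to 393 in the 5 low SRI-tg10 mice. Replicate 4 read 1119, level with the dimmest control in these unnormalized units. Pan-leukocyte genes, taken as a list, were high both in replicate 4 (mean centred log2 level 1.43) and in replicate 5 (1.68), the mouse with the lowest Laptm4a of all. Whether leukocyte content bears on the Laptm4a level was not tested. In controls the intensities under letter A, 2135 to 2825, were all above those under letter B, 1119 to 1872. The control arrays under B were also dimmer over all probes, with median intensities of 126.6 to 140.2 against 143.7 to 166.6. After normalization the letters overlapped, with control replicate 5 (B) at 10.89 and control replicate 1 (A) at 10.78.

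Within letter A, where replicate 4 is absent, the Laptm4a difference was -3.12 ± 0.15 (log2, SE), and the B mice, among them replicate 4, gave -2.18 ± 0.69. In the all-probe limma fit Laptm4a was the 1 LAPTM probe of 5 with an adjusted p under 0.05, beside 4 of all 18315 probes (0.0218%; 0.0164% higher and 0.00546% lower, with 4.26% at an unadjusted p under 0.05). It was also the 1 of 5 whose groups did not overlap, beside 0.169% of all probes. Nothing is read from these counts, from the Laptm4a call or from how often it held, since the family was chosen by this contrast. The Laptm4a call was lost in 14 of 22 alternative fits. It was lost with title letter as a block, with no detection filter, within letter B, and in 11 of the 12 leave-one-out fits. Leaving out SRI-tg10 replicate 4 was the exception among these 12, and the difference stayed negative in all 22. The authors' deposited table gives a log2 fold change of -2.90 for Laptm4a.

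**Figure D1:**
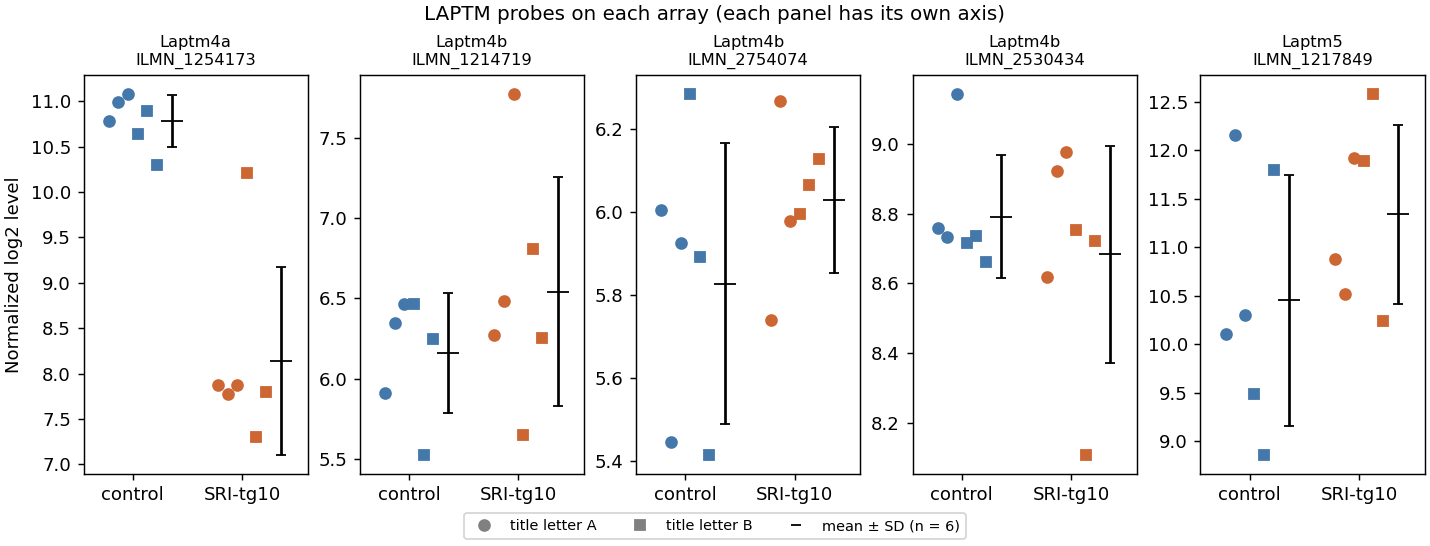
Normalized log2 level (vertical axes, a separate range for each probe) of the 5 LAPTM probes in 6 control and 6 SRI-tg10 mice; circles are title letter A, squares letter B, and bars show the mean ± SD. For Laptm4a 5 SRI-tg10 mice lie between 7.30 and 7.87 and replicate 4 at 10.21, just under the controls; for the Laptm4b and Laptm5 probes the groups overlap.

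Levels of Laptm4a and Sri were next set against each other mouse by mouse. Relative to the control mean, Sri on probe ILMN_2600537 was 32.7-fold higher in the 5 SRI-tg10 mice with low Laptm4a and 7.28-fold higher in replicate 4, the mouse whose Laptm4a was near the control range. On its other kept probes Sri was 54.55-fold (ILMN_3044633) and 21.1-fold (ILMN_3120014) higher in the 5 mice, against 5.29-fold and 6.58-fold in replicate 4. The r values below use ILMN_2600537, which in the 5 mice lies near the top of the scale. Within SRI-tg10 mice Pearson's r of Sri and Laptm4a was -0.99 (exact permutation p = 0.0097, two-sided, n = 6; 0.111 after adjustment over 16 relations). Spearman's rho was -0.83 (exact permutation p = 0.0583, adjusted 0.233). Without replicates 4 and 5, the mice farthest from the median Sri level, r was -0.54 over 4 mice. Without replicate 4 alone r was -0.82 over 5 mice, and without any other single mouse -0.999 to -0.985, an alternative chosen after seeing the data. The relation did not pass the correction. Within controls, whose Sri levels span 9.60 to 10.09, r was -0.07 (exact permutation p = 0.917, adjusted 0.917, n = 6) and rho was 0.37.

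**Figure D2:**
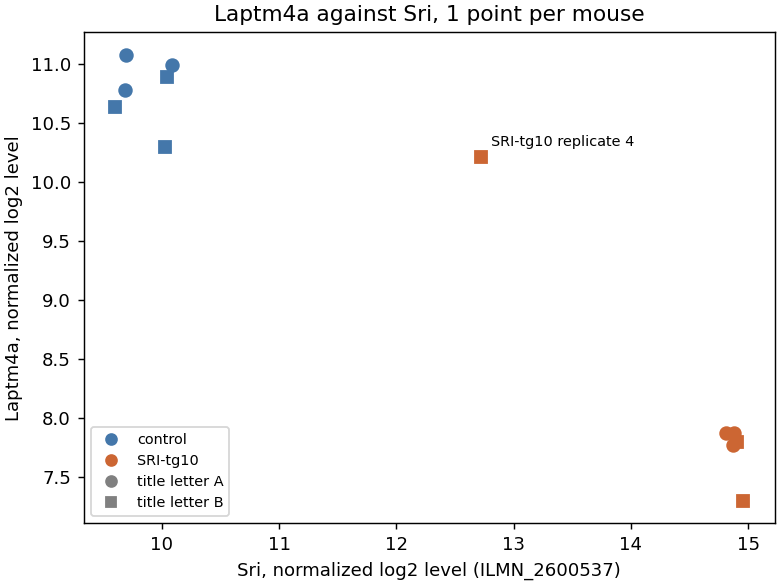
Laptm4a against Sri (normalized log2 level on both axes), 1 point per mouse, blue for control and orange for SRI-tg10, circles for title letter A and squares for B. Controls lie at the upper left, 5 SRI-tg10 mice at the lower right, and replicate 4 between them on the Sri axis at 12.72 with Laptm4a at 10.21.

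Genes near Laptm4a on chromosome 12 were compared with it, taking the 5 nearest genes with a kept probe on each side in RefSeq order. None of the 10 passed the all-probe limma test between groups (lowest adjusted p 0.921), and their differences ran from -0.19 to 0.48 on the log2 scale. The closest measured neighbours were Pum2, which encodes an RNA-binding repressor of translation, at -0.17 ± 0.13 (SE) and Osr1, a transcription factor gene, at -0.07 ± 0.10. Between them and Laptm4a lie 5 and 8 RefSeq genes with no kept probe. Rhob, for a small GTPase of endosomes, was at 0.14. The gene 2810032G03Rik had the highest value of the 10, 0.48 ± 0.19 (limma, adjusted p = 0.921). Of the 10, 8 were lower and 2 higher in SRI-tg10, and none was below -0.19, against -2.65 for Laptm4a. Laptm4a was picked with its difference known, so the gap to its neighbours is only described. The 4 neighbours of Laptm4b ranged from -0.06 for Mtdh to 0.28 for Tspyl5, and those of Laptm5 from -0.07 for Mecr to 0.33 for Ptpru, none of them past the test.

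**Figure D3:**
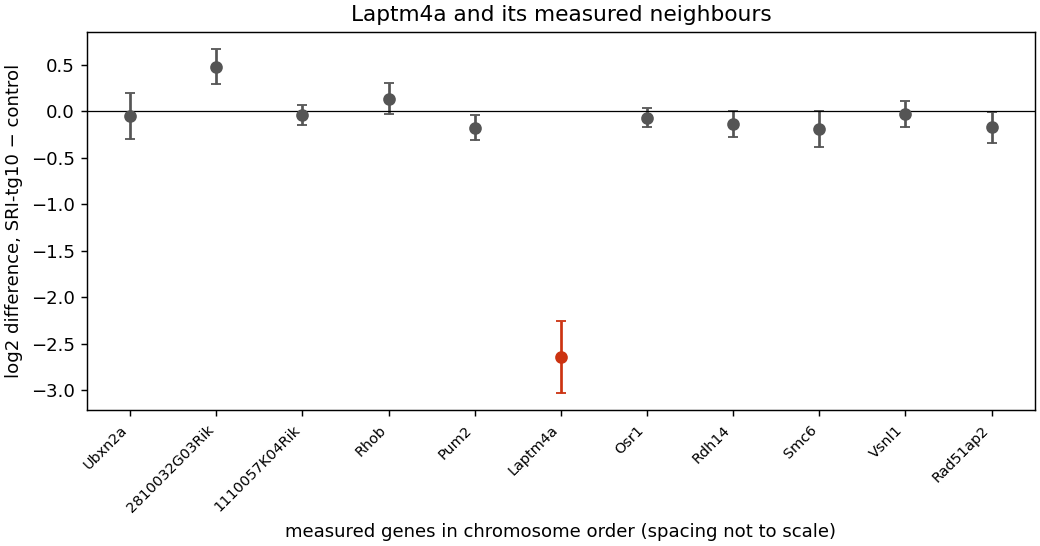
Log2 difference, SRI-tg10 minus control (vertical axis), for Laptm4a and the 5 nearest measured genes on each side in chromosome order (spacing not to scale); bars are the SE of the limma fit, n = 6 mice per group. Laptm4a is at -2.65 and the 10 neighbours are between -0.19 and 0.48.

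Laptm4b, on chromosome 15, was read by 3 probes, and on none of them did the groups separate. Probe ILMN_2530434 read 8.76, 8.73, 9.14, 8.72, 8.74 and 8.66 in controls and 8.62, 8.92, 8.98, 8.75, 8.11 and 8.72 in SRI-tg10 mice. Control replicate 3 was high and SRI-tg10 replicate 5 low in groups that otherwise covered the same levels. The means were 8.79 ± 0.18 and 8.68 ± 0.31 (SD, n = 6 each), a difference of -0.11 ± 0.15 (log2, SE), which was 0.01 without SRI-tg10 replicate 5.

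Probe ILMN_1214719 of Laptm4b was detected on 11 arrays and missed in control replicate 5. Its levels were 5.91, 6.35, 6.46, 6.47, 5.52 and 6.25 in controls and 6.27, 6.49, 7.78, 5.65, 6.81 and 6.25 in SRI-tg10 mice. The SRI-tg10 mice spread on both sides of the controls, with replicate 3 highest and replicate 4 lowest of their group. The difference was 0.38 ± 0.30, and 0.14 without SRI-tg10 replicate 3. Leaving out SRI-tg10 replicate 4 or control replicate 5, the arrays that stand apart, gave 0.56 and 0.26.

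Probe ILMN_2754074 of Laptm4b was detected on 12 arrays. It read 6.00, 5.45, 5.92, 6.28, 5.89 and 5.41 in controls and 5.74, 6.27, 5.98, 6.00, 6.06 and 6.13 in SRI-tg10 mice. Controls reached both lower and higher than the SRI-tg10 mice, and the difference was 0.20 ± 0.16. Over the 12 arrays, after subtracting group means, the pairwise r of the 3 Laptm4b probes was between -0.01 and 0.17. The authors' deposited table lists log2 fold changes of -0.14, 0.23 and 0.13 for the probes in the order given here.

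Laptm5, on chromosome 4, had the widest spread between mice of the same group. Its probe ILMN_1217849, detected on 12 arrays, read 10.11, 12.16, 10.30, 9.48, 8.85 and 11.80 in controls. In SRI-tg10 mice it read 10.88, 10.52, 11.92, 11.89, 12.58 and 10.24. Levels fell into a high set of 5 mice (11.80 to 12.58; control replicates 2 and 6, SRI-tg10 replicates 3, 4 and 5) and a low set of 7 (8.85 to 10.88), each holding mice of both groups. From the lowest to the highest mouse Laptm5 differed 9.90-fold among controls and 5.08-fold among SRI-tg10 mice.

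The within-group SD of Laptm5 was 1.12 on the log2 scale, at the 98.7th percentile of all kept probes, and its SD among controls alone was at the 99.2th percentile. For Laptm4a the within-group SD was at the 96.4th percentile, but its SD among controls was at the 42.3th. The mean of Laptm5 was 10.45 ± 1.29 in controls and 11.34 ± 0.92 in SRI-tg10 mice (SD, n = 6 each), a difference of 0.89 ± 0.56 (SE). It was 0.25 ± 0.60 within letter A and 1.52 ± 0.84 within letter B, 0.57 without control replicate 5 and 0.78 without SRI-tg10 replicate 4. The authors' deposited table lists 0.36.

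Markers of leukocytes were set beside Laptm5, which is itself a leukocyte gene and was left out of the lists. The same 5 mice with high Laptm5 had the 5 highest mean levels in each of 4 lists: pan-leukocyte genes, macrophage and dendritic cell genes, T cell genes and B cell genes. Pan-leukocyte scores, as mean centred log2 levels over 14 kept genes of 19, ran from -1.32 to 1.38 in controls and from -1.14 to 1.68 in SRI-tg10 mice. In these bulk samples more leukocytes and more Laptm5 RNA per leukocyte cannot be told apart. The part of leukocyte content in the group difference of Laptm5 was not tested.

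Within groups, the r of Laptm5 with the 4 lists was 0.79 to 0.95 over 8 relations (n = 6 each, exact permutation p from 0.0139 to 0.075, adjusted 0.111 to 0.133), with rho from 0.43 to 0.89 (adjusted exact permutation p from 0.233 to 0.559). None passed the correction over 16 relations. The mice of each group fall into a high and a low set of 2 to 4 mice, and the relation within a set was not tested. In controls r was 0.38 for pan-leukocyte, -0.87 for macrophage and dendritic cell, -0.41 for T cell and 0.83 for B cell genes after the 2 farthest mice were left out; in SRI-tg10 mice it was then 0.83 to 0.95.

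**Figure D4:**
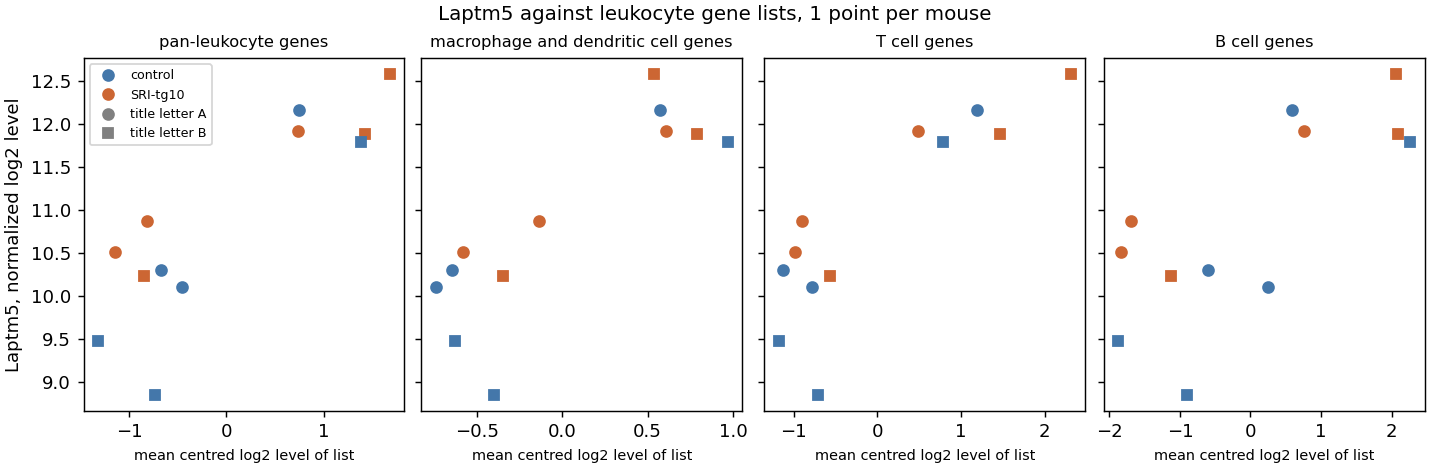
Laptm5 (vertical axis, normalized log2 level) against the mean centred log2 level of 4 leukocyte gene lists (horizontal axes), 1 point per mouse, blue for control and orange for SRI-tg10, circles for title letter A and squares for B. In each panel 5 mice, 2 control and 3 SRI-tg10, lie at the upper right and 7 at the lower left.

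None of the 55 kept leukocyte genes passed the all-probe limma test between groups, and none had an unadjusted p under 0.05. Of the 55, 50 had a higher and 5 a lower mean in SRI-tg10, whereas 49.1% of all 12647 genes had a lower mean. The lists were highest in the same 5 mice, 3 SRI-tg10 and 2 control, so the directions of these genes are not separate observations. The median difference was 0.32 for pan-leukocyte, 0.25 for macrophage and dendritic cell (20 genes), 0.77 for T cell (12 genes) and 0.22 for B cell genes (9 genes), beside 0.00 over all 12647 genes. Mrc1, the macrophage mannose receptor, differed by 0.76 ± 0.48 (SE), the highest value of its list. Cd79a, a B cell receptor subunit whose surface level LAPTM5 is known to bear on, differed by 0.69 ± 0.56, also the highest of its list. Of the 9 B cell genes 5 had a higher and 4 a lower mean, the latter including Cd79b at -0.05 and Igh-6 at -0.83. Ptprc (CD45) was detected on 0 to 3 arrays with its 4 probes and Cd247, the T cell receptor zeta chain, on 1 and 2 arrays, so neither was tested.

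The members were then compared between title letters, a contrast the choice of the family did not use. None of the 5 probes passed in the all-probe limma test of B minus A, and none had an unadjusted p under 0.05, beside 0.0928% of all probes called (0.0164% higher and 0.0764% lower in B) and 16.8% with an unadjusted p under 0.05. Laptm4a differed by 0.13 ± 0.40 (log2, SE; limma, adjusted p = 0.897) and Laptm5 by -0.17 ± 0.59 (adjusted p = 0.904). The Laptm4b probes differed by -0.38 ± 0.29, -0.24 ± 0.14 and 0.07 ± 0.16 (ILMN_1214719, ILMN_2530434 and ILMN_2754074; adjusted limma p from 0.383 to 0.855). Without SRI-tg10 replicate 4 the Laptm4a value turned to -0.32, still short of the threshold.

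The 3 genes were also set against each other from mouse to mouse. Over the 12 arrays after subtracting group means, r was 0.04 for Laptm4a with Laptm5 and -0.52, 0.33 and -0.02 for Laptm4a with the Laptm4b probes (ILMN_1214719, ILMN_2530434 and ILMN_2754074). For Laptm5 with the same probes r was 0.35, -0.31 and -0.66. The Laptm4b probes ILMN_1214719 and ILMN_2754074 lay near the detection limit on their dimmest arrays, with detection p-values of up to 0.0598 and 0.0417. These are descriptions over arrays that share their normalization, and 1 mouse weighs heavily in those of Laptm4a.

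Genes whose levels ran most like each member were listed by the same r, with no test. Probes with provisional symbols, such as Rik and LOC names, were left out of this ranking. For Laptm4a the highest were Nbr1, an autophagy receptor, at 0.90, Serhl at 0.87 and Naip5 at 0.86, and the lowest were Nicn1 and Sri, both at -0.93. Without SRI-tg10 replicate 4 (11 arrays) a different set headed the list: Rnf185 at 0.95, Trappc3 and Ret at 0.94, and Iba57 at 0.93. Smpd1, the lysosomal sphingomyelinase, came after these at 0.92, and Ifitm1 was lowest at -0.95. For Laptm4b, read by its brightest probe ILMN_2530434, they were Bex2 at 0.92, Kat5 and Tmem159 at 0.91, and Actr3 was lowest at -0.90. For Laptm5 they were Sh3bgrl3 at 0.99, the invariant chain gene Cd74 at 0.98, H2-DMb1, which helps load MHC class II, at 0.98, and Csk, a kinase that restrains Src family kinases, at 0.97.

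Genes that work with the LAPTM proteins or in their compartment were described through 8 lists. Of 247 different kept genes none passed the all-probe limma test between groups (smallest adjusted p 0.921), and 134 had a higher and 113 a lower mean in SRI-tg10. An unadjusted p under 0.05 was found for 10 genes, 5 in each direction, or 4.05%, beside 4.04% of all 12647 genes. Every one of the 247 differences lay between -0.64 and 0.62 on the log2 scale, against -2.65 for Laptm4a. Since Laptm4a was picked with its difference known, nothing is read from that gap.

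Among lysosomal membrane proteins, the class to which the family belongs, 20 of 36 genes had a higher and 16 a lower mean, with a median difference of 0.01. Mcoln3, an endolysosomal cation channel, was at 0.62 ± 0.23 (SE) and Tpcn2, an NAADP-dependent channel of the same compartment, at 0.48 ± 0.18. Both read low: Mcoln3 was detected on 7 arrays, with means of 5.16 in controls and 5.79 in SRI-tg10 mice. Tpcn2 was detected on 11, with means of 5.43 and 5.91. Sppl2a, a protease that cleaves Cd74, was at -0.44 ± 0.14. The major membrane glycoprotein Lamp1 was at 0.02 ± 0.11 and the 6 probes of Lamp2 were between -0.26 and -0.06. On none of the 36 genes were the groups without overlap, beside 0.169% of all kept probes.

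Soluble lysosomal enzymes and activators had a higher mean for 29 of 42 genes (median 0.11), with Psap, the saposin precursor, at 0.17 ± 0.17 and the protease gene Ctsb at -0.01 ± 0.13. The proton pump that acidifies lysosomes was split 9 and 9 (median 0.00). For sorting to late endosomes and lysosomes, 25 of 46 genes had a higher mean (median 0.01). Gga3, an adaptor that human LAPTM5 binds on its way to lysosomes, was at 0.23 ± 0.24, and -0.02 ± 0.27 on its other probe. Ap3m1, an AP-3 adaptor subunit, was at -0.56 ± 0.21. None of these passed.

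In the Nedd4 list, ligases and adaptors of the kind that bind PY motifs, 8 of 12 genes had a lower mean and the median difference was -0.07. Nedd4 was at -0.09 ± 0.18, Nedd4l at 0.18 ± 0.10, Itch at -0.20 ± 0.11 and the adaptor Ndfip1 at -0.04 ± 0.11. These are the brightest probes. On other kept probes Nedd4l was at -0.01 ± 0.19, Itch at -0.38 ± 0.17 and -0.30 ± 0.15, and Ndfip1 at -0.10 ± 0.09. The adaptor Ndfip2 was at 0.05 ± 0.23 on its brightest probe and at -0.37 ± 0.17 on another. Hecw2, detected on 6 arrays, was at -0.64 ± 0.21 and the arrestin-like adaptor Arrdc3 at -0.45 ± 0.20. Neither passed after adjustment (adjusted limma p 0.921).

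For glycosphingolipid and ceramide metabolism 15 of 30 genes had a higher mean (median 0.00). A4galt, the Gb3 synthase that human LAPTM4A acts with, was detected on 0 arrays and could not be compared. Ugcg, which makes glucosylceramide, was at 0.05 ± 0.15, and Acer2, a Golgi ceramidase, at -0.48 ± 0.16. Of genes for lysosomal amino acid sensing, Slc7a5 and Slc3a2, the LAT1 transporter's light and heavy chains, were at 0.30 ± 0.21 and -0.20 ± 0.25, and Tfeb was detected on 1 array with each of its 2 probes. Among autophagy genes 14 of 32 had a higher mean (median -0.02), and Atg7, which starts the lipid coupling of LC3, was at 0.44 ± 0.17.

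**Figure D5:**
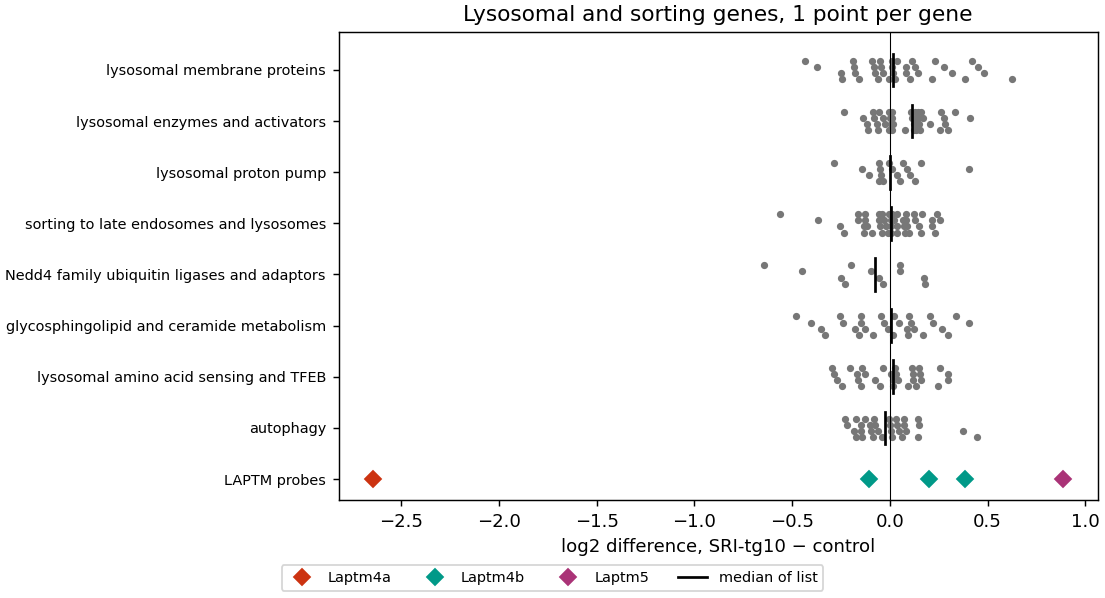
Log2 difference, SRI-tg10 minus control (horizontal axis), of every kept gene in 8 lists of lysosomal, sorting, lipid and autophagy genes (grey points, vertical bars for the list medians) and of the 5 LAPTM probes (diamonds). All grey points lie between -0.64 and 0.62, Laptm4b and Laptm5 lie between -0.11 and 0.89, and Laptm4a lies at -2.65.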

How the data were processed

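RNA of 12 islet preparations was hybridised as biotinylated cRNA to Illumina bead arrays (labels' protocols); the submitters' processing notes list GenomeStudio, with no version. The authors' intensity table, as deposited, gives mean bead intensity per probe, neither background-subtracted nor normalized judging by its values, and a detection p-value against negative controls, per the file headers. In a second deposited table the authors give log2 fold changes and p-values, and its remaining deposited statistics are scores that were not used. Intensities were normalized with neqc in limma 3.58.1 (R 4.3.3), with offset 16: normexp background correction, with the background inferred from detection p-values, then quantile normalization and log2. Probes with a detection p-value under 0.05 on at least 6 of 12 arrays were kept, 18315 in all.

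Groups were compared with lmFit and eBayes over all kept probes, with Benjamini-Hochberg adjustment and group as the 1 factor; the letter contrast had group beside it. Fits were checked on simulated data. Correlations within a group used exact permutation over 720 pairings (scipy 1.17.1), adjusted over 16 relations. The number of arrays limits the precision. Replicates were numbered in accession order. Gene lists use each gene's brightest kept probe, and list levels average the centred values of those probes.

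The members and gene lists were chosen with earlier results of these data known. Named were all members, a short list of partners, the nearest neighbours, the most alike genes and, per list, up to 4 genes with the smallest p and 2 with the highest level; 2 promoter motifs were added later. Alternatives covered normalization, offset, detection filter, array weights, title letter and leaving out each array. Promoter windows are from RefSeq (GRCm38.p6), which had Laptm4a and Laptm5.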

Additional observations from a re-analysis of the deposited data

Results flagged for a closer look

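A highest or lowest mouse with a gap to its nearest neighbour above Dixon's 95% critical share of the group's range was looked for in 24 groups of 6 values, and 5 were found. Chance alone gives this in about 5% of independent groups. The 24 groups share mice, genes and marker lists and are not independent, so no excess is read from the 5. All but the Laptm4b value come from SRI-tg10 replicate 4. Laptm4a in SRI-tg10 replicate 4 was at 10.21, far above the other 5 mice of its group. In the same mouse Sri was below the other 5 on all 3 kept probes, at 12.72 (ILMN_2600537), 10.10 (ILMN_3044633) and 12.67 (ILMN_3120014). Laptm4b on probe ILMN_2530434 was at 9.14 in control replicate 3, above the other 5 controls.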

How the results depend on the processing

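Over 28 results and 310 alternative values, 18 reversed, 14 lost a call and 13 counts moved by over 1.5 times; the causes were not tested. The other 265 kept their call and, where tested, their direction (counts stayed within 1.5 times), and among untested differences Laptm4b ILMN_2530434 turned from -0.11 to 0.0067 without SRI-tg10 replicate 5. All 14 lost calls were of the Laptm4a difference between groups, which stayed negative over 22 alternatives (-3.12 to -2.17). Its call was lost with no filter (-2.65), with title letter as a block (-2.65), within letter B (-2.18) and in 11 of 12 leave-one-out fits (-3.06 to -2.48 over the 12). The 3 Sri probes kept theirs in 21 of the 22. The r of Sri and Laptm4a in SRI-tg10 mice was -0.999 to -0.82 leaving out 1 mouse (added after seeing the data). The 4 probes called between groups became 0 within letter B and 3 to 5 with 1 array left out. The 17 probes called between letters became 9 with detection on all 12 arrays, 38 with array weights, 0 within controls, 0 within SRI-tg10 mice, and 4 to 19 with 1 array left out. No LAPTM probe passed between letters in any of 104 alternative values (adjusted limma p 0.323 to 0.996). Reversed letter differences were, for Laptm4a, -0.051 (median centring), -0.34 (within controls) and a leave-one-out range of -0.32 to 0.33; for Laptm5, 0.17 (array weights), 0.46 (within SRI-tg10) and -0.49 to 0.19; for Laptm4b ILMN_2754074, -0.02 to 0.17. In detail, Laptm5 was at 0.19, 0.02 and 0.16 without control replicates 2, 4 and 5 and at 0.05 without SRI-tg10 replicate 6, and ILMN_2754074 at -0.0071 and -0.024 without control replicates 2 and 4. Reversed correlations were Sri with Laptm4a in controls (rho 0.37); without the 2 farthest arrays, Laptm5 in controls with macrophage genes (-0.87) and T cell genes (-0.41), and Laptm4a with Laptm4b ILMN_2530434 in SRI-tg10 (-0.037) and with ILMN_2754074 in controls (-0.82). Laptm4a with ILMN_1214719 in controls gave rho 0.086 and 0.62 without 2.

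The authors' series matrix was not run as an alternative: by rank, 10 of its 12 columns hold an array other than the sample they are labelled with, 6 of them from the other group. A block for slide or scan was not run, as the headers give neither. No paired analysis was possible because the labels number the mice separately. Each Laptm4a and Laptm5 value rests on 1 probe.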

Other observations

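The list of Nedd4 family ligases and adaptors was the 1 of 17 gene lists whose mean centred log2 level did not overlap between groups. It ran from 0.0039 to 0.16 in controls and from -0.12 to -0.0053 in SRI-tg10 mice, so the gap was narrow. Its largest difference was that of Hecw2 at -0.64, detected on 6 arrays with low means of 5.66 and 5.02. Whether the lists stay apart without Hecw2 was not tested. This was seen after the data were examined and carries no test. None of its 12 genes separated the groups alone, beside 0.169% of all kept probes that did. That share is of single probes, and none was worked out for means of lists.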
